A study of Rattus norvegicus with 46 samples.

Results

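The comparison described here sets the 4 frontal lobe samples of experiment C taken after 1 mg/kg chlorpyrifos against the 3 taken after vehicle, chosen by their titles. These 7 arrays are part of 46 in the series, of which 39 could be used together. All animals were male F344 rats aged 11 to 12 weeks. The 1 mg/kg animals received 1 dose of chlorpyrifos, the vehicle animals received 0 mg/kg, and both were killed 96 hours later. RNA came from a piece of frontal lobe of about 30 mg, and each animal number stands for 1 array. Vehicle animal 1 is labelled as a first repeat, with no statement of what was repeated. The same experiment held 5 mg/kg (3 arrays used) and 10 mg/kg (4 arrays). Experiment A held its own 1 mg/kg animals (3 of 4 arrays used) and vehicle animals (3 arrays used). The question was which transcripts of the frontal lobe differed from vehicle 4 days after the lowest dose of experiment C.

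Chlorpyrifos is an organophosphate insecticide. Its oxon metabolite, made by cytochrome P450 enzymes, phosphorylates acetylcholinesterase and so lets acetylcholine accumulate at synapses, and it also binds other serine hydrolases. Acetylcholine acts in the forebrain through nicotinic ion channels and muscarinic G protein-coupled receptors, and neurons that fire strongly switch on immediate early genes such as Fos, Junb and Arc. The frontal lobe is mostly cortex, but a dissected piece can hold differing amounts of striatum, white matter and choroid plexus.

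The array of 1 mg/kg animal 1 stood apart from the others. The ratio of the 3' to the 5' probe set of beta-actin, which rises when RNA is broken or labelled short, was 4.72, 1.37, 1.28 and 1.24 in 1 mg/kg animals 1 to 4 and 1.40, 1.44 and 1.39 in vehicle animals 1 to 3. Its Gapdh ratio was 2.42, against 1.14 to 1.26 in the other 1 mg/kg animals and 1.16 to 1.23 in vehicle animals. Over the other 38 arrays used, the beta-actin ratio ran from 1.23 to 2.15 and the Gapdh ratio from 1.01 to 1.34. An exact two-sided permutation test of the log2 ratios between the groups, over only 35 regroupings, gave p = 1 for beta-actin and p = 0.686 for Gapdh. Animal 1 correlated with the other arrays of experiment C at 0.895 to 0.930, against 0.946 to 0.975 among those 13. In this animal 141 of 11106 probe sets lay over 1 log2 unit below every other array of experiment C, against 1 to 10 in each of the others. The counts, list medians and leading genes are therefore given with all 4 animals, and again without animal 1 where that value is of use.

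**Figure D1:**
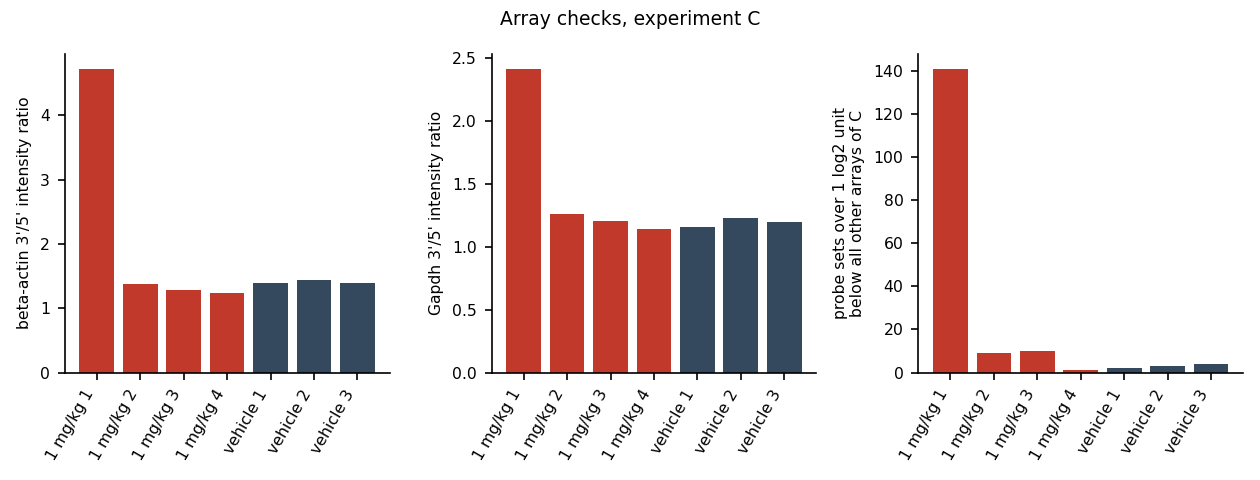
Bars show, for each array of experiment C at 1 mg/kg (red) and vehicle (dark blue), the beta-actin and Gapdh 3'/5' intensity ratios and the number of probe sets over 1 log2 unit below all other arrays of the experiment. Animal 1 at 1 mg/kg is the tall bar in each panel, with ratios of 4.72 and 2.42 and 141 probe sets.

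No transcript passed the test at 1 mg/kg. In limma's moderated test over 11106 probe sets, 0 (0%) had an adjusted p under 0.05, with a lowest adjusted p of 0.999, and again 0 without animal 1, with a lowest adjusted p of 0.948. At an unadjusted p under 0.05, 261 probe sets (2.35%) were higher and 199 (1.79%) lower, 460 in all, where 555 would be expected by chance alone. Without animal 1 the numbers were 287 (2.58%) and 224 (2.02%). The unadjusted count depended on single arrays: it was 242 without vehicle animal 1 and 751 without 1 mg/kg animal 3. Of the 460 probe sets, 253 were also among the 511 found without animal 1, which is 55% of the first list and 49.5% of the second. In 271 probe sets (2.44%) every 1 mg/kg array lay above every vehicle array, and in 245 (2.21%) every one lay below. The median difference over all probe sets was -0.005 log2 units, the median standard error was 0.17, and 32 probe sets differed by over 1 log2 unit. The median SD among the 1 mg/kg animals was 0.23, or 0.19 without animal 1, against 0.16 among vehicle animals. Everything named below is therefore a value that did not pass, with adjusted p = 0.999 in limma unless another is given.

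Several immediate early genes, which neurons switch on when they are active, were among the lower values. Junb, a subunit of the AP-1 transcription factor, had log2 levels of 8.16, 8.28, 8.52 and 8.49 in 1 mg/kg animals 1 to 4, against 8.81, 9.10 and 8.85 in vehicle animals. Arc, a postsynaptic protein made on neuronal activity, had 9.50, 9.59, 9.74 and 9.41 at 1 mg/kg, against 10.10, 10.12 and 9.90 in vehicle animals. Both genes were below every vehicle value in each of the 4 animals. The difference was -0.56 ± 0.14 for Junb and -0.48 ± 0.14 for Arc (SE), and -0.49 and -0.46 without animal 1. Their 95% intervals ran from -0.87 to -0.25 and from -0.78 to -0.18.

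Fos, the partner of the Jun proteins in AP-1, had log2 levels of 7.90, 6.58, 7.20 and 6.41 at 1 mg/kg, against 8.15, 8.07 and 8.25 in vehicle animals. Animal 1 was the nearest to vehicle, and the difference was -1.13 ± 0.47, or -1.43 without it. Gadd45g, a stress- and activity-induced growth arrest gene, had 6.88, 6.82, 5.94 and 6.87 at 1 mg/kg, against 7.12, 7.58 and 7.27 in vehicle animals. Its difference of -0.70 ± 0.24 drew most on animal 3. Nr4a1, an orphan nuclear receptor, was named after its values were seen: it had 9.55, 9.20, 9.65 and 9.21 at 1 mg/kg, against 9.79, 9.86 and 9.83 in vehicle animals, a difference of -0.42 ± 0.17.

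These 5 were the members of the 24 measured immediate early and activity-regulated genes that lay below vehicle without overlap, against 2.21% of all probe sets, and none lay above without overlap. By direction alone 15 of the 24 were lower and 9 higher, with a median of -0.12, beside 51% lower and a median of -0.005 over all probe sets. Without animal 1 the median was -0.17, but without animal 2 it was 0.01, so the list's median rested on that array. The others were mixed. Egr1, a zinc finger factor induced by synaptic input and named after its values were seen, had 11.56, 11.35, 11.33 and 11.47 at 1 mg/kg, against 11.58, 11.47 and 11.56 in vehicle animals, and Ier5, an immediate early response gene, was higher by 0.37 ± 0.14 (log2), with the groups overlapping.

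**Figure D2:**
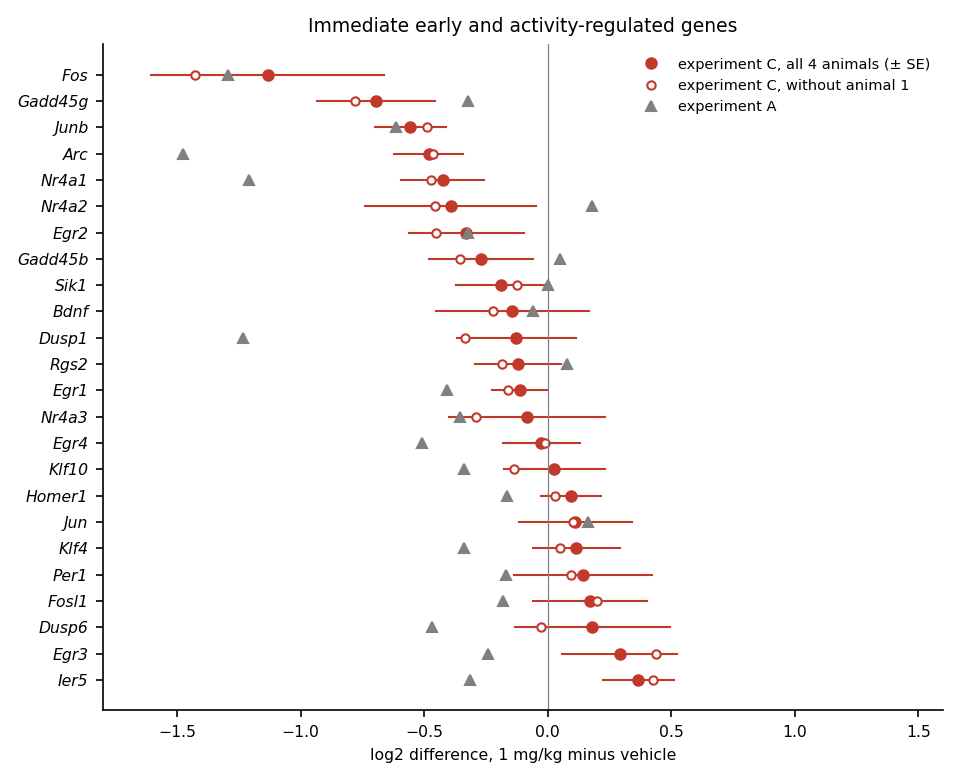
Each row is 1 of the 24 immediate early and activity-regulated genes, and the x axis is the log2 difference of 1 mg/kg minus vehicle. Filled circles with bars show experiment C with its SE, open circles experiment C without animal 1 and triangles experiment A. Fos, Gadd45g, Junb, Arc and Nr4a1 are at the top, below 0 in both experiments, and the lower rows are mixed.

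The promoters of 3 of these 5 genes are printed, as none was available for Fos or Arc. They were looked at because the 5 were lower together and because immediate early genes are known to respond to CREB and serum response factor. They are RefSeq sequences of build GRCr8, 250 bases before to 50 after the start of the gene, read on the strand of the gene. Capitals mark the CRE core, TGACG, on either strand.

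Junb, chr19:40080876-40081175, plus strand: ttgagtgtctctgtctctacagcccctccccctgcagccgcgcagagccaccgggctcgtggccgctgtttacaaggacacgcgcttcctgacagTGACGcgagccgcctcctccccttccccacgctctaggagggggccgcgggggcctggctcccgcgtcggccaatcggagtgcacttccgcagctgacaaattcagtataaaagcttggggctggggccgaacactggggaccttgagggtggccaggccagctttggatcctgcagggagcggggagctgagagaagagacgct
Nr4a1, chr7:134259888-134260187, plus strand: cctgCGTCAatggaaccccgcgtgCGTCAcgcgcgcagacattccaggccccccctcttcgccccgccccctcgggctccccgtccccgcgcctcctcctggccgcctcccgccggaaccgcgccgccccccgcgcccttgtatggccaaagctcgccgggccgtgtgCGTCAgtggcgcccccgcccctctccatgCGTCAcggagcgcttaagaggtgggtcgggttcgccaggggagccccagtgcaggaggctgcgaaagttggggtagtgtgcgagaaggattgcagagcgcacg
Gadd45g, chr17:13530302-13530601, minus strand: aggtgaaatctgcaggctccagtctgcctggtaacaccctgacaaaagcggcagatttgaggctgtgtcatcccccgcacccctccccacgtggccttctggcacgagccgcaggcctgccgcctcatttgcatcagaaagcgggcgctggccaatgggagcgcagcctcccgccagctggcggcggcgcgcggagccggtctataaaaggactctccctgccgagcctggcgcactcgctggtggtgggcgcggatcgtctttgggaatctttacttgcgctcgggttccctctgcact

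The core occurs 1 time in the Junb window, 4 times in that of Nr4a1 and 0 times in that of Gadd45g. Among 33469 rat promoters of the same length 21.2% hold it. Of the 18 measured immediate early genes with a promoter available, 12 hold it in at least 1 of their promoters. A gene with several promoters has more chances to count, so shares of promoters and of genes, here and below, are not alike. The whole CRE, TGACGTCA, which contains the core, is in 1.83% of all promoters and in 1 of the 18. The CArG box of serum response factor is in 1.64% of all promoters and in 2 of the 18. Neither of these 2 is in the 3 windows printed. These matches describe letters in a window and say nothing of what acted in these animals.

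Arc and Junb were also lower at 1 mg/kg in experiment A, which used other animals and its own vehicle group. Arc had log2 levels of 9.67, 8.73 and 9.45 at 1 mg/kg in A, against 10.52, 11.29 and 10.46 in the vehicle animals of A, a difference of -1.47 ± 0.33 (adjusted p = 0.323 in limma). Junb had 8.89, 8.60 and 8.75 at 1 mg/kg in A, against 9.01, 9.71 and 9.36 in the vehicle animals of A, a difference of -0.61 ± 0.21. Fos had 7.60, 6.96 and 7.95 at 1 mg/kg in A, against 8.17, 9.30 and 8.92 in the vehicle animals of A, a difference of -1.29 ± 0.54. In each of these 3 genes, all 1 mg/kg animals of A lay below all vehicle animals of A. Gadd45g overlapped in A, with 6.34, 6.80 and 6.73 at 1 mg/kg and 7.24, 6.89 and 6.71 in vehicle animals. Its difference in A was -0.32 ± 0.25. The share of all probe sets without overlap in A was not counted. The difference between the experiments (C minus A) was 0.99 ± 0.45 for Arc, 0.06 ± 0.29 for Junb and 0.16 ± 0.74 for Fos, and none passed (adjusted p = 0.648, 0.993 and 0.991). In A, 5 of the 24 list members were higher, with a median of -0.32. The list was chosen with earlier results of these data known, experiment A included, so the likeness of both experiments is not independent support.

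Within experiment C the mean levels of Junb and Arc at the higher doses were nearer to vehicle. Junb averaged 8.92 ± 0.16 in vehicle animals, 8.36 ± 0.17 at 1 mg/kg, 8.63 ± 0.17 at 5 mg/kg and 8.91 ± 0.22 at 10 mg/kg (SD). Arc averaged 10.04 ± 0.12, 9.56 ± 0.14, 9.72 ± 0.31 and 9.89 ± 0.14 at the same doses. All doses share the vehicle arrays, and the direct differences between 1 mg/kg and 5 mg/kg were -0.27 ± 0.14 for Junb and -0.16 ± 0.14 for Arc. Between 1 mg/kg and 10 mg/kg they were -0.55 ± 0.13 and -0.33 ± 0.13, with adjusted p = 0.999 for both.

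Eaf1 had the smallest p among the lower values. Eaf1, a factor of transcription elongation, had log2 levels of 7.54, 6.49, 6.89 and 8.13 at 1 mg/kg, against 8.67, 8.69 and 8.44 in vehicle animals. Its difference was -1.34 ± 0.32, the lowest of all 24 genes with the smallest p, and the 4 animals were widely spread (SD 0.72, against 0.14 in vehicle animals). Ewsr1, an RNA-binding protein of the FET family, had 9.18, 9.38, 9.02 and 9.28 at 1 mg/kg, against 9.65, 9.64 and 9.63 in vehicle animals, a difference of -0.43 ± 0.11. Zc3h11a, a zinc finger protein of mRNA export, had 8.52, 8.42, 8.08 and 8.48 at 1 mg/kg, against 8.84, 8.83 and 8.90 in vehicle animals. In both, the vehicle values were unusually close together (SD 0.01 and 0.04).

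Fabp7, the brain fatty acid-binding protein of astrocytes and radial glia, had 9.17, 8.33, 9.86 and 9.31 at 1 mg/kg, against 10.42, 9.93 and 10.59 in vehicle animals, a difference of -1.15 ± 0.34 (0.45-fold). Gfap, the astrocyte filament protein, averaged a log2 difference of -0.10 ± 0.26, and 7 of 18 astrocyte markers were higher, with a median of -0.05. Crabp1, a cytosolic retinoic acid-binding protein, differed by -0.83 ± 0.24, and Id3, an inhibitor of helix-loop-helix factors, by -0.60 ± 0.18. Id3 had 8.74 in animal 1 and 9.76 in animal 3, which overlapped the lowest vehicle value of 9.75. Nkain4, which binds the sodium pump, differed by -0.79 ± 0.20, Adi1, an enzyme of methionine salvage, by -0.40 ± 0.11, Ankrd10 by -0.50 ± 0.14 and Prr12 by -0.59 ± 0.17.

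Among the higher values, Mtx1 had the smallest p of all. Mtx1, metaxin 1 of the mitochondrial outer membrane, had log2 levels of 10.28, 9.95, 9.87 and 10.07 at 1 mg/kg, against 9.33, 9.47 and 9.60 in vehicle animals, a difference of 0.58 ± 0.13 (1.50-fold), or 0.50 without animal 1. Kcns1, a silent subunit that modifies voltage-gated potassium channels, had 7.71, 8.85, 8.17 and 7.75 at 1 mg/kg, against 6.63, 6.07 and 6.91 in vehicle animals. Its difference of 1.59 ± 0.44 (3.00-fold, 95% interval 0.63 to 2.54 in log2) was the highest of the 24, and all 4 animals lay above vehicle.

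Foxc2, a forkhead factor of mesenchyme and vessels, had 7.70, 7.66, 7.21 and 7.24 at 1 mg/kg, against 6.42, 6.91 and 6.84 in vehicle animals. Gpihbp1, which holds lipoprotein lipase on capillaries, averaged 7.60 ± 0.39 at 1 mg/kg, against 6.67 ± 0.30 in vehicle animals (SD). Their log2 differences were 0.73 ± 0.18 and 0.93 ± 0.25, with no overlap. Ckmt1, the mitochondrial creatine kinase, was higher by 0.40 ± 0.10 (log2) and Camkk1, which activates calmodulin-dependent kinases, by 0.75 ± 0.22, with Camkk1 at 10.26 in animal 3 overlapping the highest vehicle value of 10.30. The other 6 were the selenocysteine enzyme Sepsecs (0.55 ± 0.14), Lhfpl6 (0.56 ± 0.15), the zinc transporter Slc30a5 (0.58 ± 0.16), the cell motility factor Elmo2 (0.42 ± 0.12), the nuclear pore protein Pom121 (0.36 ± 0.10) and the Wnt acyltransferase Porcn (0.63 ± 0.18).

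Of these 24 genes, 22 had no overlap between the groups, with and without animal 1, which follows in part from choosing them by p. All 24 kept an unadjusted p under 0.05 without animal 1.

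**Figure D3:**
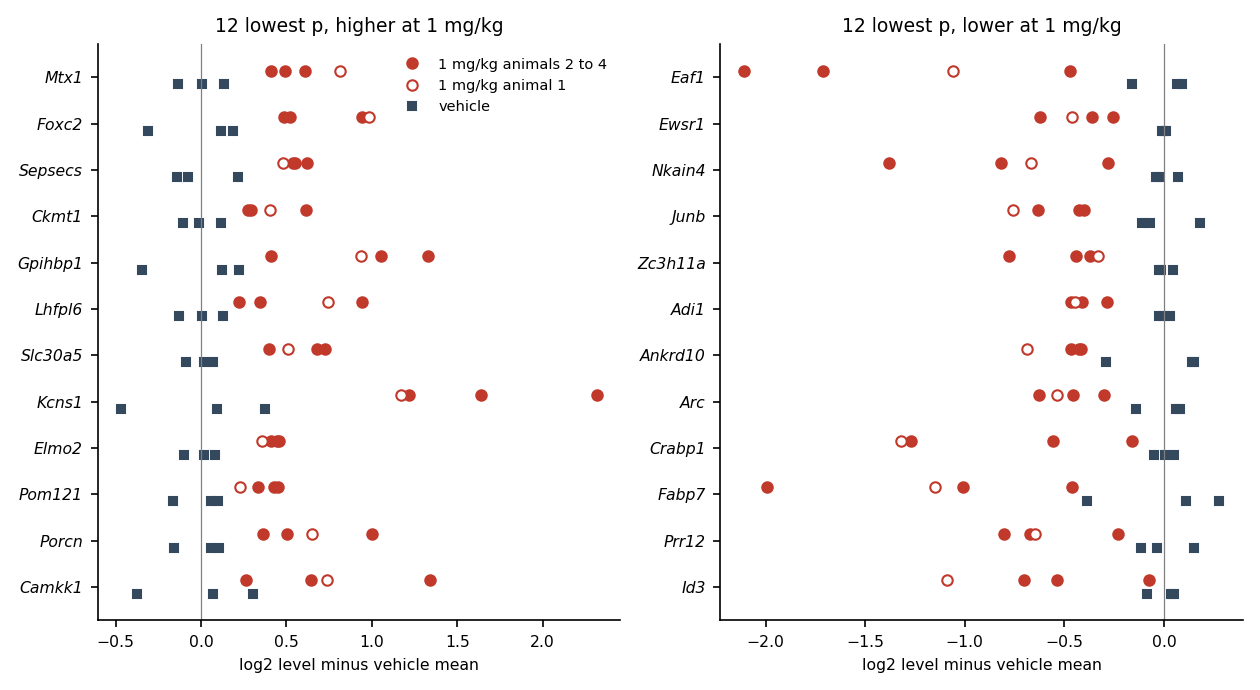
Points are the log2 level of each array minus the vehicle mean for the 12 genes with the smallest p among the higher (left) and the lower values (right). Red circles are 1 mg/kg animals, the open one animal 1, and dark squares vehicle animals. In 22 of the 24 rows the colours do not overlap, and animal 1 lies among its group in most rows.

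Experiment A did not show the same directions for these genes. Of the 24, 7 had the same direction at 1 mg/kg in A: 3 of the 12 higher and 4 of the 12 lower. Kcns1, at 3.00-fold in C, averaged log2 levels of 6.50 at 1 mg/kg in A and 7.47 in the vehicle animals of A. Foxc2 averaged 6.90 at 1 mg/kg in A and 7.43 in the vehicle animals of A. Over 11106 probe sets the 1 mg/kg differences of C and A correlated at -0.217 (-0.173 without animal 1), as a description across probe sets that share platform and normalization. Of 37 probe sets with an unadjusted p under 0.05 in both experiments, 9 had the same and 28 the opposite direction.

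The difference between the experiments was itself tested. No probe set passed, with 815 (7.34%) at an unadjusted p under 0.05 and a lowest adjusted p of 0.387 in limma. The 5 genes with the smallest p had that adjusted p. They were Zc3h11a (C minus A -0.73 ± 0.17), Ewsr1 (-0.61 ± 0.14), Sncb, beta-synuclein of the presynapse (0.62, with 0.27 in C and -0.35 in A), Clec2l (0.85) and Cdkal1, a tRNA-modifying enzyme (1.33). Mtx1 followed with 0.80 ± 0.20.

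Against the other doses of experiment C, 153 probe sets (1.38%) had an unadjusted p under 0.05 for 1 mg/kg minus 5 mg/kg and 211 (1.9%) for 1 mg/kg minus 10 mg/kg, and 0 passed in either (lowest adjusted p of 1 and 0.999). Eaf1 averaged 8.60 ± 0.14 in vehicle animals, 7.26 ± 0.72 at 1 mg/kg, 8.42 at 5 mg/kg and 8.32 at 10 mg/kg. Ewsr1 averaged 9.64, 9.21, 9.57 and 9.64 at the same doses. In both genes, the 1 mg/kg group was the one apart. Against 5 mg/kg, Vps33a, a subunit of endosomal tethering complexes, had the smallest p of the genes named (0.61 ± 0.14), followed by Eaf1 (-1.15 ± 0.32), Ewsr1 (-0.35 ± 0.11), Tshz2 (0.46 ± 0.14) and Cpb2 (0.47 ± 0.14). Against 10 mg/kg the smallest p belonged to Ewsr1 (-0.43 ± 0.10) and Junb, followed by Mink1, Cep128 and Mccc1.

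The cholinergic genes, closest to the known action of chlorpyrifos, showed small differences. Of 16 measured members 10 were higher and 6 lower, with a median of 0.13 (0.13 without animal 1). None had an unadjusted p under 0.05 with all 4 animals, and 2 higher members, Lynx1 and Chrna2, had one without animal 1, against 2.58% of all probe sets. Lynx1, a membrane prototoxin that damps nicotinic receptors, had log2 levels of 9.71, 10.29, 9.78 and 9.93 at 1 mg/kg, against 9.45, 9.67 and 9.65 in vehicle animals, a difference of 0.34 ± 0.17. Pcyt1a, of phosphatidylcholine synthesis, differed by 0.22 ± 0.13, and another of its probe sets had the opposite direction. Chka, choline kinase alpha, differed by -0.18 ± 0.13. These 3 of the 16 were the members whose groups did not overlap, 2 higher and 1 lower, against 2.44% and 2.21% of all probe sets.

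The nicotinic subunits differed by 0.38 ± 0.19 (Chrna2), 0.14 ± 0.16 (Chrna4) and 0.22 ± 0.17 (Chrna7). The muscarinic receptors differed by 0.11 ± 0.77 (Chrm1), 0.18 ± 0.21 (Chrm2), 0.16 ± 0.18 (Chrm3), -0.39 ± 0.27 (Chrm4) and 0.39 ± 0.30 (Chrm5). Chrm1 had 4.58, 7.64, 4.79 and 7.33 at 1 mg/kg, against 7.12, 6.32 and 4.49 in vehicle animals, so its low values fell in both groups. Butyrylcholinesterase (Bche), another target of the oxon, had 7.02, 6.91, 7.19 and 7.09 at 1 mg/kg, against 7.22, 6.84 and 7.21 in vehicle animals. The collagen tail of acetylcholinesterase (Colq) differed by 0.04 ± 0.16, the choline transporters Slc5a7 and Slc44a1 by -0.33 ± 0.31 and -0.29 ± 0.25, and choline kinase beta (Chkb) by -0.05 ± 0.13.

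Another 9 members, with the acetylcholine-synthesising enzyme Chat and the vesicular transporter Slc18a3 among them, lay under the filter on dim probe sets. Chat had 6.36, 5.71, 6.86 and 7.43 at 1 mg/kg, against 7.76, 6.20 and 7.16 in vehicle animals, with wide overlap. Acetylcholinesterase itself was not analysed here.

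Among 12 measured hydrolases that organophosphates can bind and paraoxonases, 8 were higher and 4 lower, with a median of 0.04. Pon2, an intracellular lactonase of the paraoxonase family, had log2 levels of 10.03, 9.98, 9.89 and 9.86 at 1 mg/kg, against 10.29, 10.10 and 10.28 in vehicle animals. All 4 lay below vehicle, by 0.28 ± 0.09 on average, and Pon2 was at 0.00 in experiment A. The hydrolases Prep and Mgll differed by -0.09 ± 0.10 and 0.16 ± 0.20. Of 19 genes of xenobiotic metabolism 11 were higher and 8 lower. In each direction 1 member had groups without overlap, against 2.44% (higher) and 2.21% (lower) of all probe sets. The higher one was Sult4a1, by 0.22 ± 0.10. The lower one, Gstm1, a glutathione transferase, had 10.25, 10.73, 10.68 and 10.52 at 1 mg/kg, against 10.84, 11.04 and 10.77 in vehicle animals. Gstm1 differed by -0.34 ± 0.13 in C and by 0.33 ± 0.13 in A.

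The list median farthest from 0 was that of striatal markers. All 19 striatal markers were lower at 1 mg/kg, with a median of -0.82 (-0.63 without animal 1, and -0.50 without vehicle animal 1). Their mean log2 level was 8.77, 9.19, 10.44 and 9.52 in 1 mg/kg animals 1 to 4 and 11.02, 9.75 and 10.15 in vehicle animals 1 to 3. Animal 3 at 1 mg/kg stood above 2 of the 3 vehicle animals, and 0 of the 19 genes had groups without overlap. Penk, the enkephalin precursor, had 11.12, 11.35, 13.02 and 11.90 at 1 mg/kg, against 13.36, 12.01 and 12.62 in vehicle animals, a difference of -0.81 ± 0.47. Drd2, the dopamine D2 receptor, had 8.43, 8.93, 10.11 and 8.80 at 1 mg/kg, against 10.79, 9.40 and 9.72 in vehicle animals. Arpp21, a dopamine-regulated phosphoprotein, had the smallest p of the list (-0.78 ± 0.24), and 1 of its 3 probe sets had the opposite direction. In experiment A, 17 of the 19 were higher, with a median of 0.40. In such bulk tissue, fewer cells of a type and less RNA per cell cannot be told apart.

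Myelin ran the same way as striatum. All 14 measured oligodendrocyte and myelin markers were lower, with a median of -0.31 (-0.23 without animal 1). Their mean level was 10.19, 10.53, 11.11 and 10.62 at 1 mg/kg, against 11.05, 10.58 and 11.42 in vehicle animals. Animal 1 was lowest, and animal 3 was above 2 of the vehicle animals. Mog, a surface protein of myelin, differed by -0.74 ± 0.26 and Mbp, myelin basic protein, by -0.18 ± 0.13. Markers of cortical projection neurons were higher in 13 of 14, with a median of 0.22 (0.28 without animal 1). Cux2, of upper cortical layers, had 8.54, 8.59, 8.18 and 8.66 at 1 mg/kg, against 7.85, 8.33 and 7.72 in vehicle animals. In A the median of this list was -0.25.

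Markers of choroid plexus and hypothalamus varied widely within both groups. Ttr, transthyretin of the choroid plexus, had log2 levels of 8.64, 10.89, 13.84 and 8.36 at 1 mg/kg, against 7.36, 7.47 and 13.91 in vehicle animals. Oxt, oxytocin, had 6.61, 5.70, 7.44 and 8.79 at 1 mg/kg, against 5.87, 6.20 and 11.72 in vehicle animals, and Avp, vasopressin, had 9.92 in 1 mg/kg animal 4 and 11.46 in vehicle animal 3. Pmch, the melanin-concentrating hormone precursor, was highest in the same 2 arrays, at 9.05 and 8.77. Hbb, beta-globin of blood, differed by -0.26 ± 0.44. What part these differences in tissue have in the results above was not tested.

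**Figure D4:**
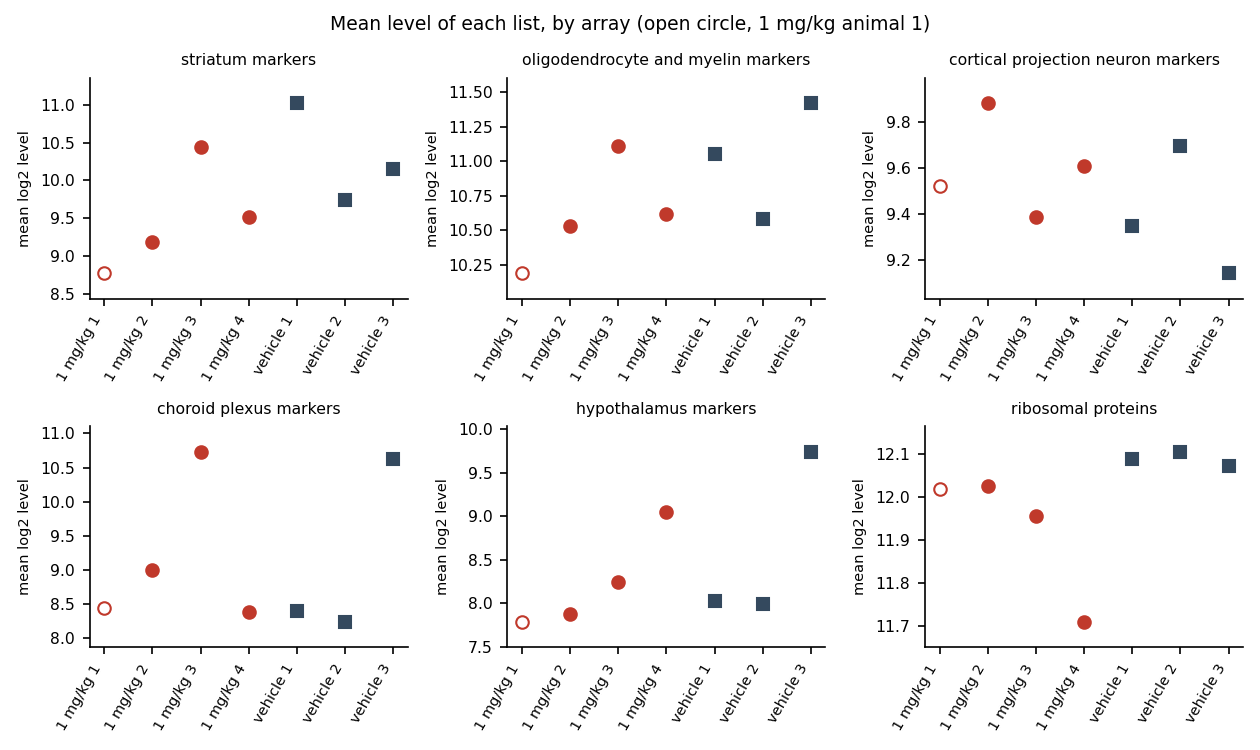
Each panel shows the mean log2 level of the measured genes of 1 list in each array, with 1 mg/kg arrays on the left (red, animal 1 open) and vehicle arrays on the right (dark squares). Striatal and myelin means overlap between the groups, choroid plexus is high in 1 mg/kg animal 3 and vehicle animal 3, and all 4 ribosomal means at 1 mg/kg lie below the 3 of vehicle.

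Ribosomal proteins, the structural parts of the ribosome, were lower in all 31 measured genes, by a median of 0.16 log2 units. Without animal 1, 29 were lower and 2 higher, with a median of -0.19. Under median scaling or no scaling 5 and 3 of the 31 were higher with medians of -0.08 and -0.10. Their mean level was 12.02, 12.03, 11.96 and 11.71 at 1 mg/kg, against 12.09, 12.11 and 12.07 in vehicle animals. Animal 4 was the lowest, and without it the median was -0.08. Rpl18, of the large subunit, had 11.13, 11.19, 11.25 and 10.81 at 1 mg/kg, against 11.32, 11.39 and 11.42 in vehicle animals. Rps9, of the small subunit, had 11.81, 11.88, 11.79 and 11.64 at 1 mg/kg, against 12.21, 11.96 and 11.96 in vehicle animals. In 6 of the 31 genes every 1 mg/kg array lay below every vehicle array, against 2.21% of all probe sets. In A, 26 of the 31 were higher, with a median of 0.07. The 32 proteasome subunits measured were lower in 26, with a median of -0.05.

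Of 23 measured genes of cholesterol synthesis 18 were lower, with a median of -0.13 (-0.12 without animal 1). Srebf2, the master factor of cholesterol synthesis, had log2 levels of 9.66, 10.00, 9.91 and 9.60 at 1 mg/kg, against 10.29, 10.10 and 10.17 in vehicle animals. Nsdhl, a sterol dehydrogenase, differed by -0.52 ± 0.24. Of 28 heat shock and unfolded protein response genes 18 were lower, with a median of -0.04. Hsp90b1, the chaperone of the endoplasmic reticulum, had 10.72, 11.00, 11.17 and 11.03 at 1 mg/kg, against 11.28, 11.34 and 11.41 in vehicle animals, and Calr, calreticulin, differed by -0.18 ± 0.08.

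Of 30 measured genes of synaptic vesicles and release 19 were higher, with a median of 0.08 (0.13 without animal 1). An unadjusted p under 0.05 was found for 4 higher members, against 2.35% of all probe sets, and for 6 without animal 1, against 2.58%. Snap25, of the release machinery, had log2 levels of 13.63, 13.61, 13.37 and 13.41 at 1 mg/kg, against 13.28, 13.31 and 13.24 in vehicle animals. Nefl, neurofilament light chain and a member of the neuron markers, had 11.89, 11.70, 11.47 and 11.81 at 1 mg/kg, against 11.34, 11.36 and 11.43 in vehicle animals. Rgs4, which speeds the shut-off of G protein signals, belongs to a list with 20 of 38 members lower and had 12.05, 11.98, 11.93 and 11.70 at 1 mg/kg, against 11.55, 11.58 and 11.54 in vehicle animals. In these 3 genes all 1 mg/kg arrays lay above all vehicle arrays, and in A the differences were -0.12, -0.20 and -0.32. Such genes were 2 of 30 in the synaptic list, 2 of 12 neuron markers and 3 of 38 in the list of Rgs4, against 2.44% of all probe sets. In the list of Rgs4, 1 member lay below without overlap. Of 13 interneuron markers 5 were higher and 8 lower. Pvalb, of fast-spiking interneurons, differed by 0.88 ± 0.48, Vip by 0.59 ± 0.23, the vesicular GABA transporter Slc32a1 by -0.33 ± 0.24 and Tac1, the substance P precursor that is also a striatal marker, by -1.54 ± 0.77, all with overlap. Of 16 measured clock genes 10 were higher and 6 lower, with a median of 0.10 (0.15 without animal 1). In A, 4 were higher and 12 lower, with a median of -0.12. Bhlhe40, a repressor of the clock, differed by 0.70 ± 0.24, Nr1d1, REV-ERB alpha, by 0.35 ± 0.16 and Nfil3 by -0.24 ± 0.14. Nr1d1 (higher) and Nfil3 (lower) were the members whose groups did not overlap, against 2.44% and 2.21% of all probe sets.

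Most of the remaining lists lay near 0. Inflammation genes (21 measured) had a median of 0.01 and microglial and MHC markers (21) one of -0.07, or 0.06 without animal 1. Genes of the oxidative stress response (26) had a median of 0.03, the mitochondrial respiratory chain (44) one of 0.02 and glutamate receptors and transporters (21) one of 0.01. The GABA system (17) had a median of -0.10, which was 0.07 without animal 1. Glucocorticoid-responsive genes (22) had a median of 0.00, and Sgk1, a kinase induced by glucocorticoids, had 10.53, 11.43, 9.88 and 9.78 at 1 mg/kg, against 10.10, 11.35 and 10.96 in vehicle animals. The medians were -0.05 for neurotrophins and growth factors, -0.03 for the monoamine system, -0.03 for neuropeptides, -0.02 for G protein signalling, -0.01 for voltage-gated channels, 0.05 for xenobiotic metabolism, 0.01 for apoptosis and cell cycle, and 0.02 for cytoskeleton and axon growth. Among markers, interneurons had a median of -0.05, olfactory bulb -0.08, endothelium and pericytes 0.09, skeletal muscle 0.01 and neurons in general 0.15. Meninges and fibroblast markers were higher in 12 of 17, with a median of 0.24 (0.36 without animal 1).

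**Figure D5:**
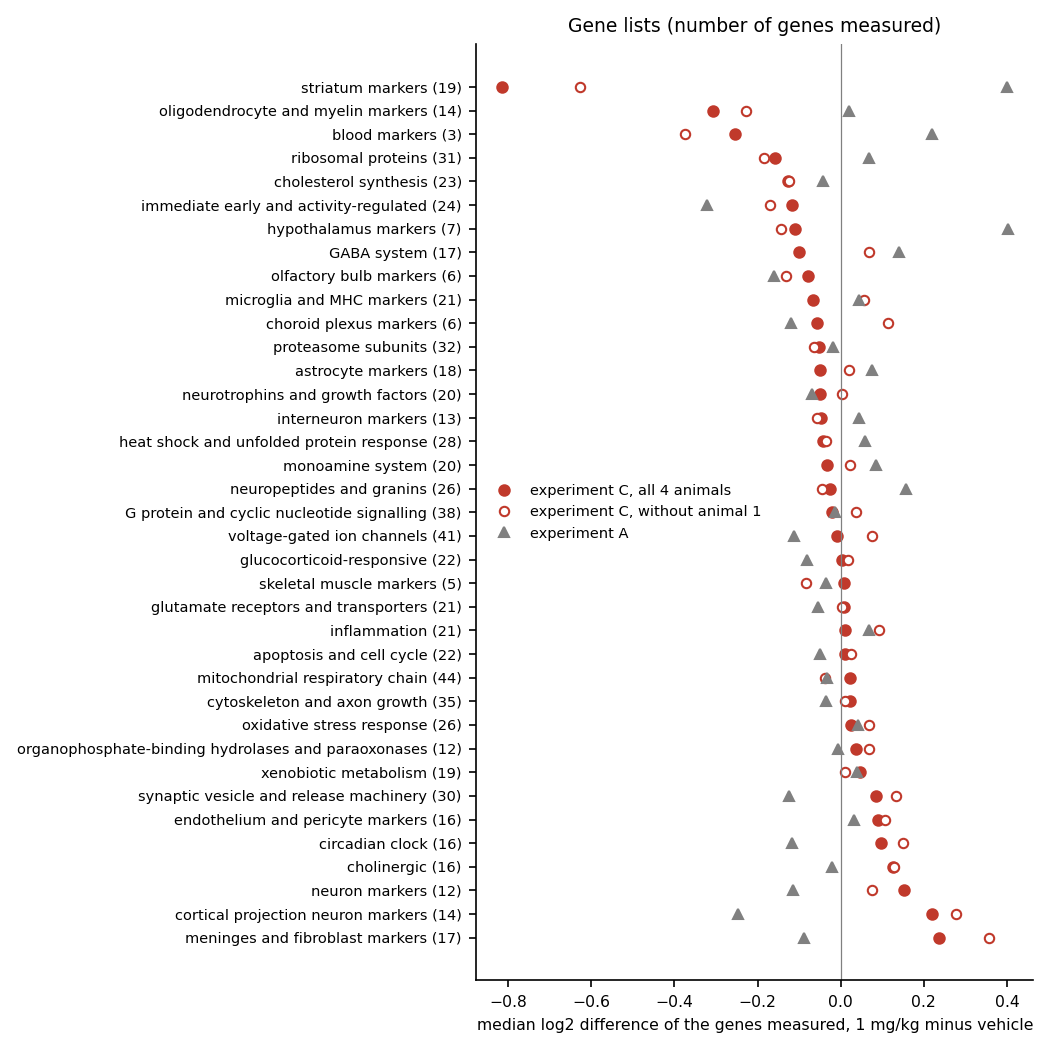
Each row is a gene list with the number of genes measured, and the x axis is the median log2 difference of 1 mg/kg minus vehicle. Filled circles show experiment C, open circles experiment C without animal 1 and triangles experiment A. Striatal markers stand at -0.82 in C and at 0.40 in A, and immediate early genes are below 0 in both.

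The values of some genes turned on animal 1. Thy1 (its first probe set below), Lrp11 and Ddr1 were named for a small p without animal 1, and that choice favours such values. One probe set of Thy1, a surface protein of neurons, had log2 levels of 9.58, 12.34, 12.18 and 12.24 at 1 mg/kg, against 11.60, 11.86 and 11.77 in vehicle animals, while a second Thy1 probe set had 12.17, 12.14, 11.80 and 12.15 at 1 mg/kg, against 11.81, 11.84 and 11.80 in vehicle animals. With animal 1 the Thy1 probe sets thus ran in opposite directions, at -0.16 ± 0.48 for the first and 0.25 ± 0.12 for the second. Without animal 1 both were higher, by 0.51 ± 0.12 and 0.21 ± 0.12. Lrp11 had 4.42 in animal 1 and 8.49, 8.78 and 8.71 in the others at 1 mg/kg, against 8.21, 8.01 and 7.69 in vehicle animals. Ddr1, a collagen receptor kinase, had 5.80, 7.99, 8.22 and 8.16 at 1 mg/kg, against 9.09, 8.49 and 8.67 in vehicle animals, and its difference was -1.21 ± 0.43 with and -0.63 ± 0.15 without animal 1. The high 3'/5' ratios and these low values are of the same array, and their relation was not tested.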

How the data were processed

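The data are Affymetrix rat array values, with RNA extracted by a Qiagen kit and labelled from 15 ug by an Enzo procedure, per the labels. The authors deposited linear signal intensity per probe set, 15923 in all, without detection calls, and the trimmed means of the experiment C arrays used were nearly equal. Which software summarized the probes is not stated by the labels. Of 46 arrays, 7 shared no probe set order with the rest (r from -0.0068 to 0.0025) and were left out. Arrays have no read depth, so precision is limited by how many arrays a group holds.

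Each array was divided by its median relative to the others, values under the 5th percentile (10.6) were raised to it, and the result was log2 transformed and quantile normalized over 39 arrays. After leaving out 57 control probe sets and those with a mean under the 30th percentile, 11106 remained, of which 9339 carry 1 symbol (8003 genes). The platform annotation gives 12783 probe sets 1 symbol, 312 several and 2771 none, and 12748 of those with 1 symbol matched RefSeq by gene identifier.

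The fit was limma 3.58.1 (R 4.3.3) with dose as a factor over the 14 usable arrays of experiment C, with a variance trend, two-sided tests and Benjamini-Hochberg adjustment. The difference between C and A used all 39 arrays. The procedure was tested on simulated data with independent normal values for each probe set. These hold no array like that of animal 1, so they do not show how the procedure deals with one. P-values measure the spread between animals as the labels number them. Figures used matplotlib 3.10.9 under python 3.11.15.

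The comparison, the 37 gene lists and the tests were chosen with earlier results of these data known. In the lists and among the markers always named, a gene is represented by its probe set with the highest mean. The 12 higher and 12 lower genes, and those named for a small p in another comparison or without animal 1, are represented by their probe set with the smallest p. Of the 12 higher and 12 lower, Mtx1, Eaf1 and Zc3h11a had 2 probe sets tested, and the other had the same direction. Genes were named by rule: the 12 higher and 12 lower with the smallest p, up to 4 members per list with the smallest p, all cholinergic members, Oxt, Avp, Pmch, Ttr, Penk, Drd2, Mbp, Arc, Fos, Hbb and Gfap, and the 5 with the smallest p in each other comparison. Some of the higher and lower genes with the smallest p without animal 1 were also named. Nr4a1 and Egr1 were named after their values were seen.

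Alternatives were leaving out each array or the arrays labelled as a first repeat, other sets of arrays, other scaling, floor and filter, no variance trend, array weights, the 3'/5' ratio as covariate and the animal number as a block.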

Additional observations from a re-analysis of the deposited data

Results flagged for a closer look

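In 16 of 234 values tested, 1 animal at 1 mg/kg lay far from the other 3 of its group by Dixon's criterion, and chance alone gives about 1 in 20 such groups. Animal 1 was the one apart in 10 of them. It had a beta-actin 3'/5' ratio of 4.721 (others 1.237 to 1.369), a Gapdh ratio of 2.417 (others 1.142 to 1.264) and a median intensity of 228.3 (others 263.8 to 271). It also had the lowest log2 levels of Ddr1 at 5.8, Scn2a, a sodium channel, at 9.16, Cx3cr1, a microglial receptor, at 7.54, Lrp11 at 4.42 and 1 of the 2 Thy1 probe sets at 9.58. Its mean level over the GABA system was 8.85 (others 9.35 to 9.42) and over the circadian clock genes 8.71 (others 9 to 9.05). Ddr1, Lrp11 and that Thy1 probe set were named for a small p without animal 1, which favours such flags.

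Animal 2 lay apart in Gng10, a G protein gamma subunit, at 9.94 (others 10.12 to 10.15), in Kcnab2, a potassium channel subunit, at 11.46 (others 10.47 to 10.61), in Alas2, of haem synthesis in red cells, at 4.99 (others 7.91 to 8.44) and in the mean of cholesterol synthesis genes at 8.77 (others 9.17 to 9.21). Animal 3 lay apart in Gadd45g at 5.94 (others 6.82 to 6.88) and in the other Thy1 probe set at 11.8 (others 12.14 to 12.17).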

How the results depend on the processing

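For 1 mg/kg against vehicle, 0 probe sets passed under 18 of 19 alternatives. Without the filter on dim probe sets 1 passed (limma adjusted p = 0.0442), a dim unnamed probe set with a difference of 2.27 and a mean log2 level of 4.58. For 1 mg/kg against 10 mg/kg, 1 unnamed probe set passed without the arrays labelled as a first repeat (adjusted p = 0.00861). Leaving out each array gave 0 in every comparison. The log2 difference of the beta-actin ratio was 0.34 and lay between -0.12 (without 1 mg/kg animal 1) and 0.52. The exact permutation test without animal 1 gave p = 0.1, the smallest p that the arrays left allow. Apart from animal 1, every 1 mg/kg animal had a lower beta-actin ratio than every vehicle animal. At an unadjusted p under 0.05, the 460 for 1 mg/kg against vehicle became 242 to 751 on leaving out each array, 254 without the first-repeat arrays, 746 over all 39 arrays and 716 with no filter. The 153 against 5 mg/kg ranged from 85 (filter at the 50th percentile) to 350 (no filter), and the 211 against 10 mg/kg from 132 to 452 under the same 2 settings. With the animal number as a replicate block, 0 passed in each comparison, with 534 at an unadjusted p under 0.05 for 1 mg/kg against vehicle. Deviations of same-numbered animals correlated at -0.115, 0.198 and 0.262, and those of animals with different numbers at -0.38 to 0.144. So few pairs cannot tell whether the numbers pair the animals. The 24 genes with the smallest p kept their direction in all 448 values over the 19 alternatives, with a lowest adjusted p of 0.425, though only 16 of them were tested under the 50th percentile filter. Choosing them by p in these arrays favoured this. Where the groups do not overlap, leaving out an array cannot reverse a direction. Of 555 list medians under alternatives, 39 moved by over 1 vehicle SD. The cause of these shifts was not tested. The number of arrays and the lack of detection calls limit what dim probe sets can show.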
